A study of Mus musculus with 4 samples.

Results

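Glucose-responsive transcription by ChREBP and its partners was followed through 7 genes on 4 Agilent arrays of mouse islet cells: Mlxipl, Mlxip and Mlx, which encode the transcription factors, their targets Txnip, Arrdc4 and Pklr, and the arrestin domain gene Arrdc3. Every gene probe whose transcript accession mapped to these symbols was taken, which gave 12 of the 56605 probes and 7 of the 22916 gene symbols on the array. The islet cells came from male 60-week-old C57BL/6 littermates, were dispersed and were kept ex vivo for 24 h with 10 μM of either a scrambled peptide (replicates 1 and 2) or MOTS-c (replicates 2 and 3). MOTS-c is a peptide encoded within the mitochondrial 12S rRNA gene, and the scrambled peptide is its control, so all 4 samples received a peptide and none was untreated. Islets are mixed tissue, in which fewer cells of a type and less RNA per cell cannot be told apart. The islets were dispersed in DMEM with serum, and the glucose concentration during the treatment is not given in the sources used here.

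ChREBP, the product of Mlxipl, and MondoA, the product of Mlxip, are basic helix-loop-helix leucine zipper proteins that respond to glucose phosphate intermediates. Each binds DNA as a heterodimer with Mlx at carbohydrate response elements, which consist of E-box-like sequences set a short distance apart. In beta cells, glucose strongly induces Txnip through ChREBP, and Txnip, an alpha-arrestin that binds thioredoxin, limits glucose uptake and is linked to beta cell death.

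None of the 12 probes differed between MOTS-c and scrambled at an adjusted p under 0.05 (limma, Benjamini-Hochberg over 35087 probes), and 0% of all probes tested did. None had an unadjusted p under 0.05 in that fit. By a looser rule, a change of 1.5-fold or more at an unadjusted p under 0.05, none of them passed either, while 1.1% of all probes passed with a higher level and 2.43% with a lower level in MOTS-c. The changes ran from -0.15 to 0.30 on the log2 scale. Arrdc3 had the largest of them and was the only member whose change exceeded the gap between arrays of the same group, for which no share of all probes is given here. The median absolute change was 0.11 over the members and 0.14 over all probes. With 2 arrays in each group, an exact permutation test of a single probe cannot give a two-sided p below 0.333, so the p-values below come from the limma fit across all probes.

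The stretches around annotated starts that are shown here were chosen because they hold letters of the type of box that ChREBP and its relatives bind. They are from RefSeq on GRCm38.p6 and are read 5′ to 3′ on the strand of the gene. Windows from 250 bases before to 50 bases after each start were searched for the letters CACGTG, and for a pair of boxes CNCGNG separated by 5 bases, on both strands. Capitals mark the boxes, and the region after each name gives the position of the stretch.
Txnip (chr3:96557852-96557908, + strand): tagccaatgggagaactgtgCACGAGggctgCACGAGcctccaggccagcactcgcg
Pklr, second of 2 starts (chr3:89136433-89136489, + strand): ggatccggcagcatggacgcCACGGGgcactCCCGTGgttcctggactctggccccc
Arrdc4 (chr7:68749406-68749451, - strand): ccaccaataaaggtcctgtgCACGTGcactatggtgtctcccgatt
Mlxipl, first of 2 starts (chr5:135089772-135089817, + strand): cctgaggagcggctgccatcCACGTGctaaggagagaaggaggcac
Mlx (chr11:101087230-101087275, + strand): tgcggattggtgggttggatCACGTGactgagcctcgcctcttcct

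The paired boxes lay 85 to 69 bases before the Txnip start and 170 to 154 bases before the second Pklr start. Such a pair was found in 1.39% of the 32851 windows of all genes, and in 2 of the 11 windows of the members. The single box CACGTG lay 193 to 188 bases before the Arrdc4 start, 98 to 93 bases before the first Mlxipl start and 40 to 35 bases before the Mlx start. It was found in 7.15% of all windows and in 3 of the 11. The windows of Mlxip and Arrdc3, the second window of Mlxipl and the first of Pklr held neither set of letters. The letters describe these windows only, and binding was not measured.

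**Figure D1:**
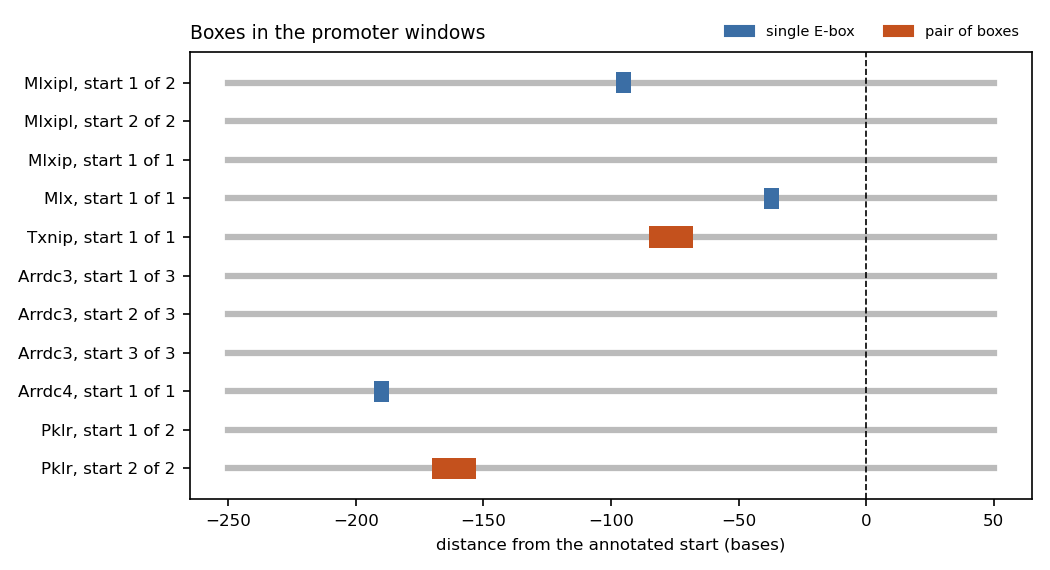
Position of the boxes in the 11 promoter windows of the members. The x axis is the distance in bases from the annotated start (dashed line), each grey line is a window, blue marks the single box CACGTG and orange the pair of boxes CNCGNG; the pairs lie upstream of Txnip and of the second Pklr start, and the single boxes upstream of Mlxipl, Mlx and Arrdc4.

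Mlxipl, the gene of ChREBP, was measured by a pair of probes that the files assign to the same transcript without giving their positions in it. The brighter probe read log2 intensities of 14.39 and 14.19 in scrambled (replicate 1, then 2) and of 13.93 and 14.39 in MOTS-c (replicate 2, then 3), the order used throughout. MOTS-c replicate 3 matched scrambled replicate 1 and MOTS-c replicate 2 was the lowest array, and the log2 fold change was -0.13 (SE 0.20, 95% interval -0.66 to 0.41, limma adjusted p = 0.918). The dimmer probe read 10.89 and 11.02 in scrambled and 10.86 and 11.59 in MOTS-c. Here MOTS-c replicate 3 alone was high, and the log2 fold change was 0.27 (SE 0.27, 95% interval -0.44 to 0.98, limma adjusted p = 0.849). Without that array the difference was -0.10. The signals of the pair of probes were separated by 3.50 and 3.17 log2 units on the scrambled arrays and by 3.07 and 2.80 on the MOTS-c arrays, so their ratio was not constant across arrays. The ChREBP gene has an alternative upstream start that gives the shorter beta form, but the files do not say which form either probe reads.

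Mlxip, the gene of MondoA, read 8.56 and 8.68 in scrambled and 8.80 and 8.53 in MOTS-c with its brighter probe. Both scrambled arrays lay between the MOTS-c arrays, and the log2 fold change was 0.05 (SE 0.15, 95% interval -0.35 to 0.45, limma adjusted p = 0.959). The second Mlxip probe was near background, at 1.60 to 1.66 times its local background, and was well above background on 2 of the 4 arrays. Its values of 4.54 and 3.70 in scrambled and 3.79 and 4.49 in MOTS-c spread widely in both groups, with a log2 fold change of 0.02 and a 95% interval of -0.98 to 1.02.

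Mlx, the obligate partner of both factors, read 11.33 and 11.20 in scrambled and 11.20 and 11.14 in MOTS-c with its brighter probe, a log2 fold change of -0.10 (SE 0.13, 95% interval -0.43 to 0.24, limma adjusted p = 0.891). Both MOTS-c arrays were lower, but only by 0.0014 log2 units between the nearest arrays, and they were tied with the authors' rounded values. The dimmer probe went the other way. It read 7.31 and 7.81 in scrambled and 7.76 and 7.67 in MOTS-c, where scrambled replicate 1 alone was low and the log2 fold change was 0.16 (SE 0.20, 95% interval -0.38 to 0.69, limma adjusted p = 0.892).

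Txnip, the best known target of ChREBP in beta cells, was bright in both groups, at 284 to 414 times local background with its brighter probe. This probe read 13.46 and 13.58 in scrambled and 13.57 and 13.31 in MOTS-c. The groups overlapped, with MOTS-c replicate 3 the lowest array. The log2 fold change was -0.08 (SE 0.15, 95% interval -0.48 to 0.32, limma adjusted p = 0.933), so the interval ran from 0.719-fold to 1.25-fold. The dimmer probe read 8.41 and 8.60 in scrambled and 8.72 and 8.26 in MOTS-c. MOTS-c replicate 3 was again the lowest array and scrambled replicate 1 the next lowest, and the log2 fold change was -0.02 (SE 0.20, 95% interval -0.54 to 0.51, limma adjusted p = 0.995). The signals of these probes were separated by 4.85 to 5.05 log2 units on every array, a nearly constant ratio unlike that of the Mlxipl probes.

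Arrdc4, an alpha-arrestin related to Txnip that is also induced through MondoA and ChREBP and that lowers glucose uptake, read 11.01 and 11.37 in scrambled and 11.27 and 10.86 in MOTS-c with its brighter probe. Its dimmer probe read 9.53 and 9.80 in scrambled and 9.87 and 9.40 in MOTS-c. On both probes MOTS-c replicate 3 was the lowest array and scrambled replicate 1 the next lowest. The log2 fold changes were -0.12 (SE 0.21, 95% interval -0.69 to 0.45, limma adjusted p = 0.927) and -0.03 (SE 0.21, 95% interval -0.58 to 0.53, limma adjusted p = 0.988). Between 1.41 and 1.57 log2 units separated the Arrdc4 probes on the 4 arrays.

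Pklr, the gene of liver and red cell pyruvate kinase and the classical target through which the carbohydrate response element was defined, was dim here. Its probe was well above background on all 4 arrays but only at 1.90 to 3.08 times local background. It read 5.96 and 5.94 in scrambled and 6.09 and 5.52 in MOTS-c, and both scrambled arrays again lay between the MOTS-c arrays. The log2 fold change was -0.15 (SE 0.22, 95% interval -0.73 to 0.43, limma adjusted p = 0.907). Pkm, which encodes the muscle form of pyruvate kinase, differed by 0.06 (log2) between the groups.

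Arrdc3, an alpha-arrestin that brings NEDD4 family ubiquitin ligases to membrane receptors, was the member with the largest change. It read 9.76 and 9.54 in scrambled and 10.04 and 9.86 in MOTS-c, so both MOTS-c arrays were above both scrambled arrays, by 0.10 log2 units between the nearest arrays. The log2 fold change was 0.30 (SE 0.15, 95% interval -0.09 to 0.69), which is 1.23-fold, and it did not pass the test (limma adjusted p = 0.713). A change of smaller size was seen in 78.5% of all probes tested. Of the 12 member probes, 1 was without overlap of the groups and higher in MOTS-c (Arrdc3) and 1 was without overlap and lower (Mlx, brighter probe), against 19.4% and 18.6% of all probes tested.

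**Figure D2:**
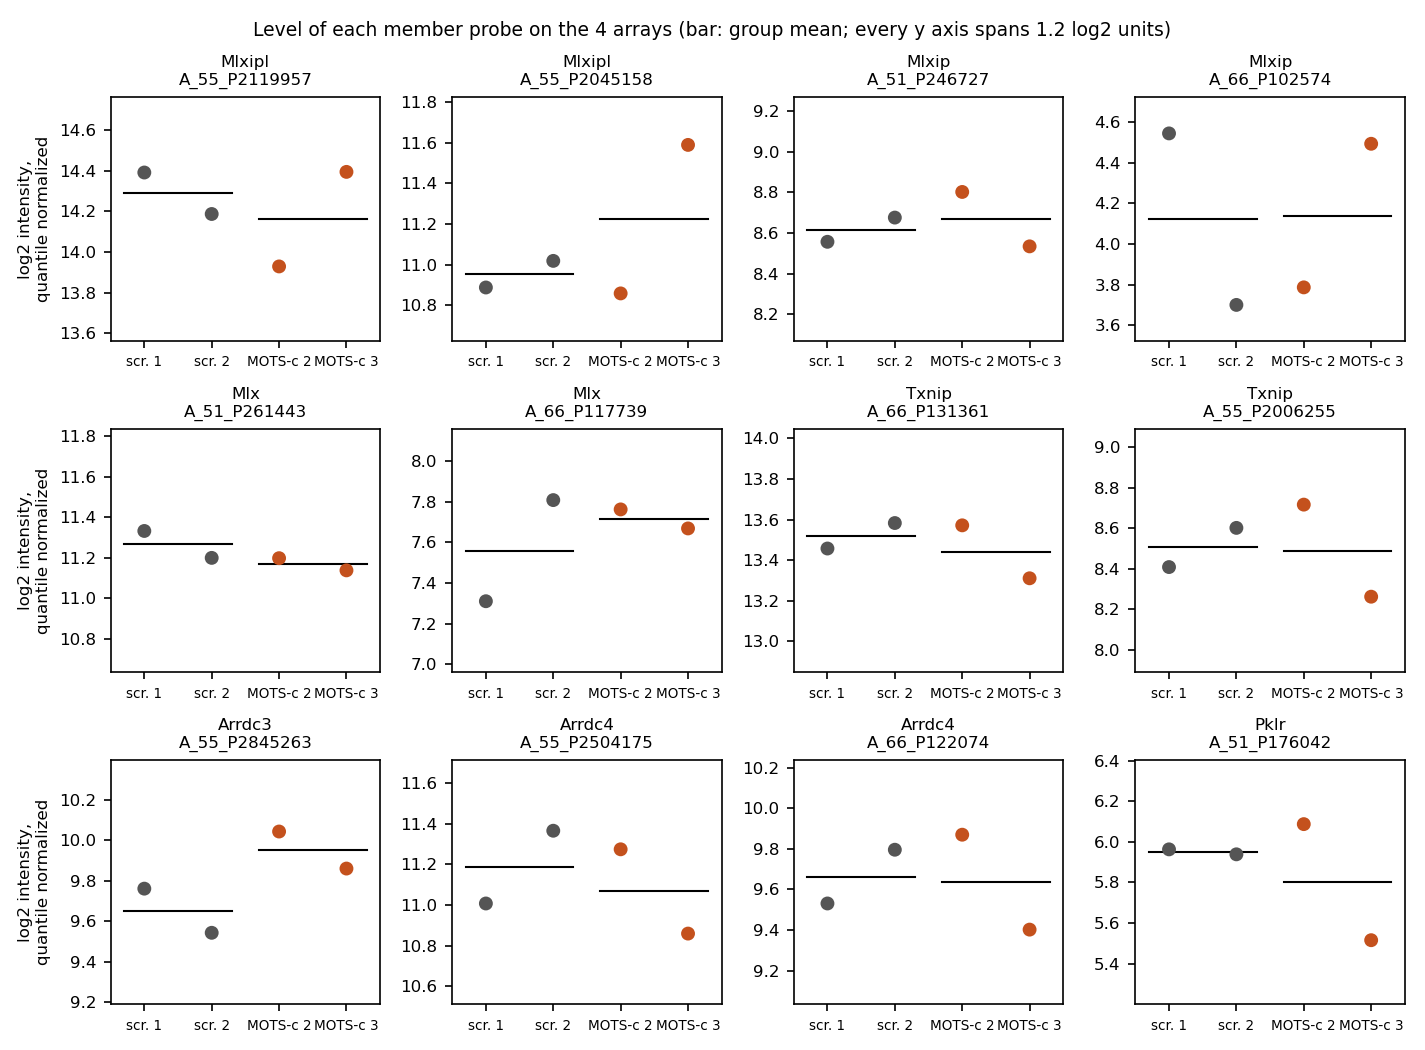
Level of each member probe on each array. The y axes show quantile-normalized log2 intensity over a span of 1.2 units, grey points are the scrambled arrays, orange points are the MOTS-c arrays, and bars are the group means; MOTS-c replicate 3 is the lowest array on both Txnip and both Arrdc4 probes, and the groups are apart only for Arrdc3 and, by 0.0014, for the brighter Mlx probe.

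Across the members, the spread between arrays was larger than the difference between the treatments. The change was smaller than its SE for 10 of the 12 probes and smaller than the larger gap between arrays of a group for 11 of them. The shares of all probes on these measures are not given here, so the counts are not shown to be particular to the members. The means were higher in MOTS-c for 5 probes and lower for 7, with a median log2 fold change of -0.02, beside 0.01 over all probes tested. For 11 of the 12 probes the 95% interval lay within a log2 change of 1 in either direction, the exception being the dim Mlxip probe. Changes inside these intervals could not be told from none with 4 arrays.

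**Figure D3:**
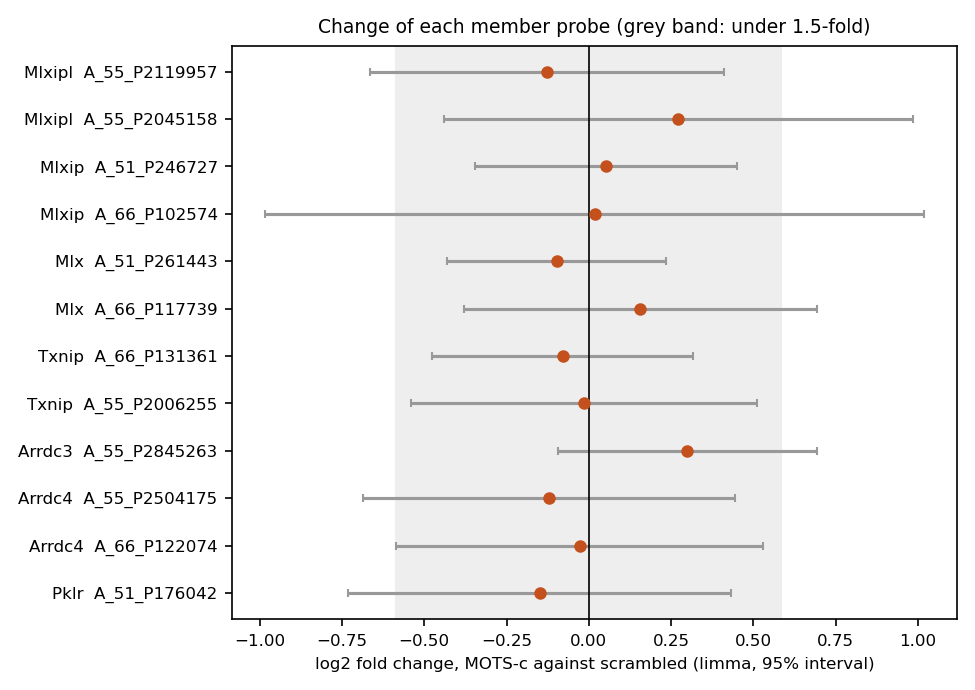
Change of each member probe between MOTS-c and scrambled. Points are log2 fold changes with their 95% intervals from limma (2 arrays per group), the line at 0 marks no change and the grey band spans changes under 1.5-fold; all points lie inside the band and every interval crosses 0.

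Arrays of the same group differed for several member probes. MOTS-c replicate 3 was the lowest array for 7 of the 12 probes. These were both Txnip and both Arrdc4 probes and the brighter Mlxip and Mlx probes together with Pklr. It was the lowest array for 33.3% of all probes measured on the 4 arrays. Probes of 1 gene are not independent, and the brighter Mlxip probe was lowest by little (8.53 against 8.56 in scrambled replicate 1). The count is therefore not shown to be particular to the members. Without MOTS-c replicate 3 the log2 fold changes turned positive for Txnip (0.05 and 0.21), Arrdc4 (0.09 and 0.21) and Pklr (0.14). The brighter Mlx probe stayed negative at -0.068. Because this array was the lower MOTS-c array for these probes, its omission raised their MOTS-c mean. With changes this small, a turn of sign was close to fixed in advance. Mlxipl did not share this order, since MOTS-c replicate 3 was its highest array on both probes. On the brighter one it was nearly level with scrambled replicate 1. Of the 4 macrophage markers 2 were tested, and they did not share an order. Csf1r read 11.22 and 11.91 in scrambled and 11.57 and 11.14 in MOTS-c with its brighter probe. That probe had its lowest value on the same array as Txnip. Its log2 fold change was -0.21, but the other Csf1r probe gave -0.02. Cd68 read 8.29 and 8.86 in scrambled and 8.75 and 8.71 in MOTS-c, with its lowest value on scrambled replicate 1. Its log2 fold change was 0.16, and 0.15 with its other probe. The summed linear level of the brighter probes of both genes, mostly that of Csf1r, was 2698 and 4316 in scrambled and 3477 and 2678 in MOTS-c. Adgre1 and Ptprc did not pass the filter on dim probes. Rbp4 (delta cell), Hba-a1 (erythroid, brighter probe), Krt7 (ductal) and Cela2a (acinar) also had their lowest value on MOTS-c replicate 3. Gcg (alpha cell), Ctrb1 (acinar) and Pecam1 (endothelial) had theirs on other arrays. A lowest value on that array was therefore not particular to the macrophage marker Csf1r. The part of macrophages or of these other cell types in the member values was not tested. All 8 beta cell markers were well above background on all 4 arrays, as were Gcg and Sst, the hormones of alpha and delta cells, which fits the labelled tissue. The alpha cell marker Irx2 was dim and passed the unadjusted rule with a higher level in MOTS-c (0.68 on the log2 scale), while Gcg was at 0.11 and the mesenchymal marker Pdgfra at -1.05, and their part in the member values was not tested. Of the other markers, 2 of 5 acinar, 1 of 3 ductal, 1 of 3 endothelial, 2 of 5 mesenchymal and 1 of 4 erythroid genes passed the filter.

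The likeness of profiles was measured as the Euclidean distance between mean-centered log2 values over the 4 arrays, from the brighter Txnip probe to 21816 probes with a symbol that were well above background throughout. The nearest genes were Gemin4 at 0.0092, Acot7 at 0.010, Abhd16a at 0.011, Cep250 at 0.014 and Xbp1 at 0.014, where the median distance was 0.299. With 4 arrays and small changes, a short distance means only a like order and a like size of the differences between the same arrays. The values were not scaled, so a probe that varies more can lie farther even in the same order. The brighter Mlxip probe lay at 0.131, with 9.18% of the searched probes nearer, and the dimmer Txnip probe at 0.158, with 14.6% nearer. The Arrdc4 probes lay at 0.202 and 0.184, with 25.3% and 20.8% nearer, so many probes of other genes were as close. The brighter Arrdc4 probe ranked the 4 arrays as the brighter Txnip probe did, but over a range of 0.51 log2 units against 0.27. The share nearer therefore does not count the genes with that order. Pklr lay at 0.254 and the Mlx probes at 0.232 and 0.373. Arrdc3 at 0.453 and the Mlxipl probes at 0.567 and 0.785 were farther than the median, so the profile of the factor gene was not that of Txnip.

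Other genes that respond to ChREBP or MondoA were measured through their brightest probe. Of the 34 listed targets that are not members, 32 were tested, 12 with a higher and 20 with a lower mean in MOTS-c. None passed at an adjusted p under 0.05, and 1 higher and 2 lower genes passed the unadjusted rule with 1.5-fold, beside 154 higher and 465 lower among all 15475 genes taken the same way. The median log2 fold change was -0.05 over these targets and -0.00 over all genes. For 27 of the 32 the change was under 0.5.

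Gpd1, the cytosolic glycerol 3-phosphate dehydrogenase that links glycolysis to lipid synthesis, had the lower level in MOTS-c with both of its probes. The brighter one read 13.29 and 13.30 in scrambled and 12.62 and 12.11 in MOTS-c, so the groups did not overlap. The log2 fold change was -0.93 (SE 0.20, limma adjusted p = 0.505), and the dimmer probe gave -0.90. Groups without overlap and lower in MOTS-c were found for 18.6% of all probes tested and for 10 of the 32 targets, Gpd1 included. Slc2a2, the gene of the glucose transporter GLUT2, read 5.23 and 5.26 in scrambled and 3.81 and 4.02 in MOTS-c, a log2 fold change of -1.33 (SE 0.14, limma adjusted p = 0.474). Its only probe was dim and well above background on 3 of the 4 arrays, and the change was -0.39 after the normexp background correction. Ppp1r3c, a subunit that targets protein phosphatase to glycogen, read 4.66 and 4.82 in scrambled and 5.35 and 5.38 in MOTS-c, a log2 fold change of 0.62 (SE 0.13, limma adjusted p = 0.491) that was 0.30 with normexp. Fgf21, a hormone of fasting and sugar intake, was at -0.70, Elovl6, a fatty acid elongase, at 0.54 and Pnpla3 at 0.37, of which none passed either rule. Fgf21 was dim, and scrambled replicate 1 alone was high at 5.30, against 4.23 in scrambled replicate 2 and 4.03 and 4.09 in MOTS-c.

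The Mondo proteins share the partner Mlx and their type of DNA box with the Max network. A list of Max network factors, to which other E-box factors, nuclear receptors and cofactors had been added, held 18 genes, all tested, with 10 higher and 8 lower in MOTS-c, none past either rule and a median of 0.03. Hnf4a, a nuclear receptor outside the Max network that acts beside ChREBP at the Pklr promoter, was the lowest of the list at -0.47, but its other probe gave -0.02. Mycn followed at -0.46 and Mnt, a Max-binding repressor, at -0.35, while Myc was at 0.36, Mxd1 at 0.20 and Ncor1 at 0.15.

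The other arrestin family members that were tested, 8 of 9, did not pass either rule, with 3 higher and 5 lower in MOTS-c and a median of -0.04. Arrdc2 was at 0.24 with its brightest probe and at 0.34 with the other. Arrdc1 was at -0.15 and 0.21 with its probes, which had opposite signs. The beta-arrestins Arrb1 and Arrb2, which end the signaling of G protein-coupled receptors, were at -0.37 and -0.23, and the retromer subunit Vps26a at 0.26. Arrdc5 was not well above background on enough arrays to be tested. The NEDD4 family ligases, with which Arrdc3, Arrdc4 and Txnip associate, numbered 8 tested of 9, had 5 higher and 3 lower means and a median of 0.06, and none passed either rule.

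Genes of the thioredoxin system, to which Txnip binds, were all 19 measured and none passed either rule. They had 9 higher and 10 lower means and a median of -0.00. Txn1, the thioredoxin that Txnip binds, was at 0.05, and the reductases Txnrd1, Txnrd2 and Txnrd3 were at 0.12, -0.23 and 0.44. The mitochondrial peroxiredoxin Prdx3 was at -0.26 and the glutaredoxin Glrx at -0.27. Of the NLRP3 inflammasome genes, which Txnip is reported to engage, 5 of 7 were tested with 2 higher and 3 lower means and a median of -0.18, and none passed either rule. Il1b was at -0.49, the pore protein Gsdmd at -0.53 and the kinase Nek7 at 0.42, while Nlrp3 and Il18 did not pass the filter. The 10 genes of pyruvate kinase, lactate and the glycolytic steps around them ran from -0.16 to 0.09, with 4 higher and 6 lower and none past either rule.

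**Figure D4:**
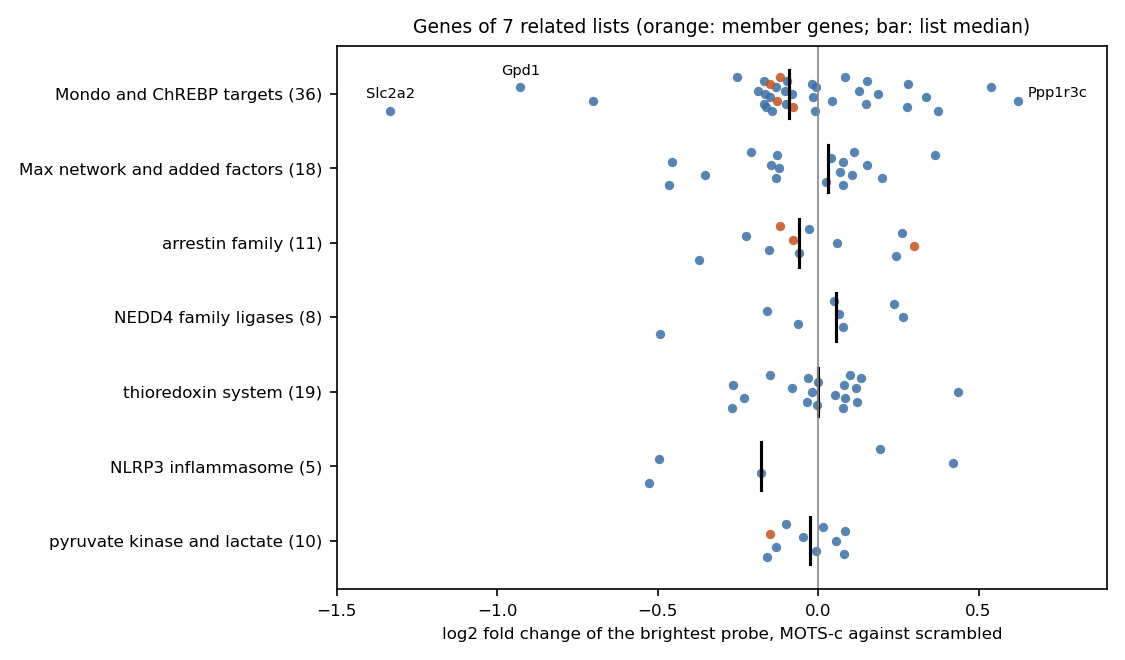
Changes of the genes in 7 lists related to the members. The x axis is the log2 fold change of MOTS-c against scrambled for the brightest probe of each gene, points are genes (orange, members), black bars are list medians, and the number of genes tested stands beside each list; the 3 named genes are those past an unadjusted p under 0.05 with 1.5-fold, and most others lie within 0.5 of 0.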

How the data were processed

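Total RNA from 4 samples of islet cells was labeled with Cy3 and hybridized to one-color Agilent arrays on 1 slide. The intensity values deposited by the authors came from Feature Extraction 11.0.1.1, are background corrected within each array and are not normalized between arrays; a second deposited table holds the same intensities rounded. Here the control spots (3671 on every array) and 96 to 131 outlier spots per array were dropped, log2 values of the spots of a probe were averaged, and the quantile method was applied to probes that Feature Extraction marks as well above background on 2 or more of the 4 arrays. On each array 61.6% to 65.0% of spots were well above background, and the number of arrays limits the precision.

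limma 3.58.1 in R 4.3.3 compared the groups for 35087 probes with Benjamini-Hochberg adjustment, on 2 residual degrees of freedom and a prior of 2.64. On simulated data the fit was checked only for recovery of the size of added changes, which is not a check of its error rates. Because the samples are labelled only as separate samples from littermates, p-values measure the spread between them. Symbols came from RefSeq GRCm38.p6 for 33006 of 56605 probes. The array design is annotated on mm9, so coordinates are given for promoter sequences only.

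All probes of the members, genes of the arrestin and thioredoxin lists, the 3 highest and 3 lowest genes of the other lists, genes past the unadjusted rule, the 5 genes nearest to Txnip and marker genes could be named. One marker gene is not reported here. The members and lists were chosen with earlier results of these data known. Alternatives were the deposited rounded values, a 75th percentile shift, normexp (offset 50), no filter or a strict filter (all 4 arrays), omission of each array, limma with a trend, the methods' t-test, and the mean over the probes of a gene.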

Additional observations from a re-analysis of the deposited data

How the results depend on the processing

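No member probe reached an adjusted p under 0.05 under any alternative, the lowest being 0.322. Arrdc3 was the only member whose sign held throughout, and with 1 array left out it ran from 0.19 to 0.41. Its groups did not overlap, which was also so for 19.4% (higher) and 18.6% (lower) of all probes tested. Omission of 1 array could therefore hardly turn its sign. Arrdc3 has 1 probe, so the mean over probes did not apply to it. That mean was the only setting that turned the brighter Mlx probe. Over the omissions of 1 array, the brighter and dimmer probes ran from -0.37 to 0.106 and -0.095 to 0.64 for Mlxipl, from -0.082 to 0.19 for the brighter Mlxip probe, from -0.16 to -0.033 and -0.094 to 0.41 for Mlx, from -0.21 to 0.054 and -0.24 to 0.21 for Txnip, and from -0.33 to 0.089 and -0.26 to 0.21 for Arrdc4, while Pklr ran from -0.44 to 0.14. The dim Mlxip probe passed the filter in only 2 of the 4 omissions, at -0.41 without scrambled replicate 2 and 0.37 without MOTS-c replicate 2. Leaving out MOTS-c replicate 3 turned the sign for Txnip, Arrdc4, Pklr and the dimmer Mlxipl probe. Signs also turned without scrambled replicate 2 (dimmer Txnip, both Arrdc4, dimmer Mlxip), without scrambled replicate 1 (brighter Mlxip, dimmer Mlx) and without MOTS-c replicate 2 (brighter Mlxipl and Mlxip). The mean over the probes of a gene was 0.072 for Mlxipl and 0.029 for Mlx, opposite in sign to their brighter probes because the dimmer probes had the other sign.

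Over all probes, 1239 passed the unadjusted rule with 1.5-fold, beside 406 with normexp, 457 with the methods' t-test and 1242 to 3070 with 1 array left out, the highest without MOTS-c replicate 2. At an adjusted p under 0.05, limma called 0 probes (2755 at an unadjusted p under 0.05) and the methods' t-test 1. The median of the ChREBP and MondoA targets, members included, was -0.090, beside -0.10 with the 75th percentile shift, -0.042 with normexp, -0.10 without a filter, -0.081 with the strict filter and -0.092 to -0.0042 with 1 array left out. The thioredoxin median was -0.0010, beside -0.037 with the 75th percentile shift, 0.053 with normexp and 0.011 to 0.039 with 1 array left out. For the inflammasome genes it was -0.10 with normexp and -0.23 to -0.13 with 1 array left out. With 1 array left out the medians ran from -0.049 to 0.019 for the list of Max network and added factors, -0.13 to 0.054 for the arrestin family, -0.052 to 0.082 for the NEDD4 family and -0.13 to 0.089 for the members. The cause of these shifts was not tested. The strict filter removed the dim Mlxip probe and Slc2a2. No paired analysis was possible because the groups share only replicate number 2.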
